A study of Xenopus laevis with 9 samples.

Results

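The genes described here are listed as markers of lineages found in a kidney. They are the transcription factors of kidney development, the GATA factors, the adhesion proteins and keratins of epithelium, and beta subunits of the sodium pump. Markers of mesenchyme, endothelium and blood are among them too. They were measured in XLK-WG cells, a kidney cell line of the frog Xenopus laevis, on Affymetrix Xenopus arrays after 3 h with 100 nM FICZ, 100 nM TCDD or the DMSO vehicle alone, with 0.25% DMSO in all groups and 3 arrays per group, which the labels call biological replicates. Flasks of cells at 90% confluence were treated, so all groups are 1 cultured line. FICZ, a photoproduct of tryptophan, and TCDD, a dioxin, bind and activate the aryl hydrocarbon receptor. Members were the probe sets whose single gene symbol, without the .L or .S that names the gene copy, was one of the lineage markers fixed by a list of symbols. There were 97 such probe sets of 15491, standing for 74 of the 7531 named gene copies and for 57 genes, and 2 further probe sets assigned to both copies of a listed gene were left out.

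In vertebrate kidney development, pax2, pax8, lhx1, osr1 and wt1 act early in the tissue that forms tubules, and mature tubules carry cadherins, tight junctions, keratins and the sodium pump. Mesenchyme is known for vimentin, smooth muscle proteins and platelet-derived growth factor receptors, and endothelium for adhesion proteins such as pecam1 and for the receptors flt1, kdr and tek. Cultured cell lines often keep only some features of the tissue they came from. Some listed genes had no probe set with a single name here. Among them were umod, lrp2, cubn, the alpha subunits of the sodium pump, pdgfrb, thy1, kdr, tie1 and cdh5.

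Values are log2 signals after quantile normalization, so a difference of 1 is a 2-fold change. Before normalization the array medians ran from 6.67 to 6.87. Of the summed squared deviations from group means, 22.6% came from DMSO replicate 2 and 4.89% to 14.1% from each of the other arrays. Only the vehicle arrays have CH in their titles, and whatever it marks cannot be told apart from the vehicle. Both copies of cyp1a1, the classical target of the receptor, were higher in all 3 arrays of each ligand than in all DMSO arrays, with cyp1a1.L at 11.47 ± 0.05 with FICZ, 9.75 ± 0.53 with TCDD and 6.65 ± 0.35 with DMSO (SD, n = 3 each).

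Which lineages gave signal in the line was described by where the mean of a probe set over the 9 arrays fell among all 15491 probe sets: in the low class under the 25th percentile (a log2 signal of 4.88), in the high class from the 75th percentile, or in the middle class between them. Detection calls were not used here and probe sets bind their targets unequally, so a class is a guide to expression and gives no order between genes. The names of 10 members end in _s_at or _x_at, among them an atp1b3.S probe set (11.74) and the brighter krt8.1.S probe set (12.73). Whether these or other probe sets also bind the other copy of their gene was not tested. Of the 97 members, 22 lay in the high class, 28 in the middle class and 47 in the low class. The low class was not tested and is not shown to be above background. For scale, of 66 probe sets of genes restricted to other tissues, such as lens crystallins, troponins of muscle and neuron genes, 47 lay in the low class, 18 in the middle class and 1 in the high class, a probe set of the muscle creatine kinase gene ckm.L. The middle class thus holds genes of other tissues too.

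**Figure D1:**
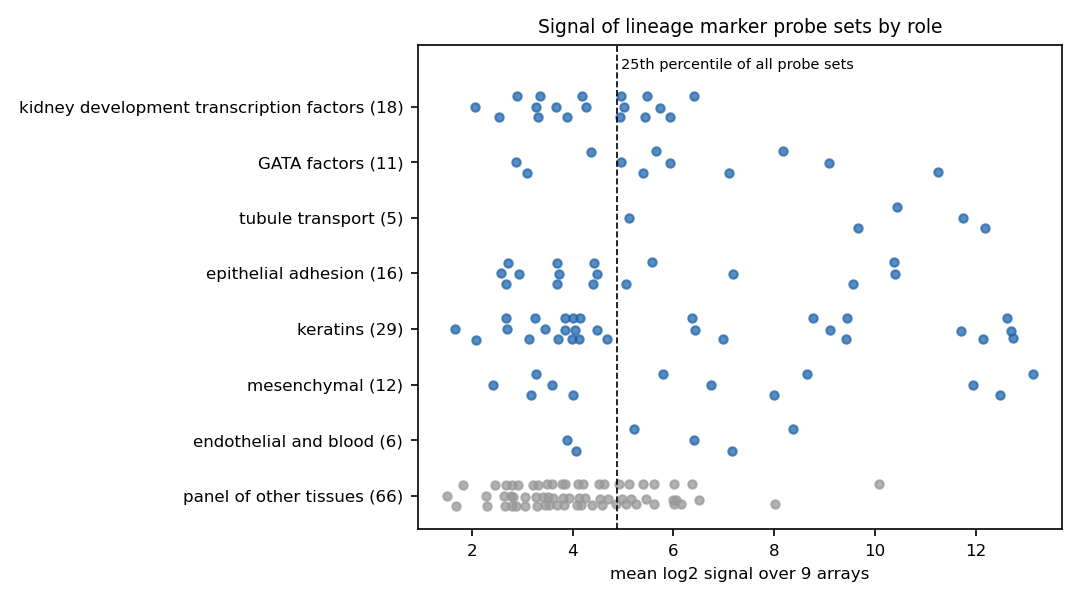
Each point is 1 probe set at its mean log2 signal over 9 arrays, in rows by the role of its gene, with the number of probe sets in brackets and, in grey, a panel of genes restricted to other tissues. The broken line is the 25th percentile of all probe sets (4.88). Points of keratins and mesenchymal markers lie at both ends, and none of the kidney development factors lies above 6.41.

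The line gave strong signal for simple epithelial keratins and for vimentin at once. krt8.1.S had a mean of 12.73 in its brighter probe set and 12.69 in the other, and krt18.1.L, the partner with which keratin of this type forms filaments, had 12.62. krt19.S had 12.15 and krt19.L 11.70. vim.L, the intermediate filament of mesenchymal and many cultured cells, had a mean of 13.13 and vim.S 11.94. All of these lay in the high class, as did s100a10.L, a gene of the S100 family, at 12.48. tagln.L, which encodes an actin-binding protein of smooth muscle, lay there too, at 8.66. The other copy of krt18.1, krt18.1.S, had a mean of 6.37, in the middle class. The tested keratins were those of simple epithelium, krt17.S and the krt70.S gene. In the low class lay 17 of 29 keratin probe sets. Among them were all those of krt15.1, krt12.2, krt12.4, krt12.5, krt12.6, krt51, krt55, krt57, krt61, krt62 and krt78.

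Among adhesion genes, cdh2.L and cdh2.S, the copies of N-cadherin, had means of 10.39 and 10.38 in their probe sets of highest signal, and cdh11.S, a cadherin of mesenchyme, had 9.56. Further cdh2.L probe sets had 7.17, in the middle class, and 3.73, in the low class. cdh1.S, which encodes E-cadherin, was at 2.58, in the low class. Likewise epcam.L (4.42), epcam.S (4.40), both probe sets of the tight junction gene ocln.S (3.69 and 4.48), cdh6.L (2.69), cdh20.L (2.71) and cdh3.L (2.94) lay there. The other copy of cdh3, cdh3.S, was in the middle class at 5.58. In all, 10 of 16 adhesion probe sets were in the low class and 3 were in the high class.

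Sodium pump beta subunits were in the high class for atp1b1.S (10.43), atp1b3.L (9.66) and both probe sets of atp1b3.S (11.74 and 12.18), and in the middle for atp1b2.L (5.12). Of 18 probe sets of kidney development factors, 8 of them for pax2.L, 0 lay in the high class, 8 in the middle and 10 in the low class. Those in the middle were wt1.L (6.41), osr1.L (5.74), pax8.L (5.49), 3 of the 8 pax2.L probe sets and 2 of the 3 sall1.L probe sets, while lhx1.L (3.66), hnf4a.S (3.28 and 3.89) and eya1.L (2.55) were in the low class. The kidney label of the line thus has no member of this group with a signal above the middle class. The GATA factors were uneven: gata6.L had 11.24 and gata4.L 9.09, in the high class, and gata6.S 8.17, whereas gata4.S (3.10) and gata3.S (2.87) lay in the low class. gata4 and gata6 are known for roles in heart and endoderm, and gata3 for the kidney duct.

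Across the comparisons with DMSO, 50 members were tested. With FICZ against DMSO, limma called 1 of 50 (adjusted p at most 0.05 over all 11618 tested probe sets), pecam1.L, which was higher, against a background of 0.603% of all tested probe sets called in either direction and 0.525% called higher. With TCDD against DMSO, 0 of 50 passed by limma, where 0.0258% of all passed, and 1 member had an unadjusted p under 0.05, again pecam1.L. With FICZ against TCDD, 1 of 50 passed, where 0.207% of all did in either direction and 0.198% in the higher direction, and it too was pecam1.L. The 3 comparisons share arrays. Bulk RNA cannot tell more cells of a type from more RNA per cell. The p values set each difference against the spread between these arrays, estimated in part from all tested probe sets.

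pecam1.L encodes an adhesion protein of the immunoglobulin superfamily that in mammals sits at endothelial cell junctions and on platelets and leukocytes. Its log2 signal was 8.16, 7.77 and 7.93 in the FICZ arrays, 6.82, 6.86 and 7.07 in the TCDD arrays and 6.52, 6.54 and 6.74 in the DMSO arrays. Every FICZ array lay above every TCDD array, and every TCDD array lay above every DMSO array, so the 3 groups did not overlap. The FICZ minus DMSO difference was 1.35 (SE 0.14, 95% interval 1.06 to 1.64), a 2.55-fold change with an adjusted p of 0.00010 by limma.

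The TCDD minus DMSO difference of pecam1.L was 0.32 (95% interval 0.03 to 0.61), a 1.25-fold change that was higher in 3 of 3 arrays but did not pass (p 0.034, adjusted p 0.97 by limma). The FICZ minus TCDD difference was 1.03 (95% interval 0.74 to 1.32), or 2.05-fold, with an adjusted p of 0.0030. Without DMSO replicate 2, the array that stood apart, the differences were 1.32 for FICZ (adjusted p 0.00052) and 0.29 for TCDD (adjusted p 0.99). pecam1.L was placed in the middle class, at the 55.0th percentile of all probe sets, and 1 probe set stands for the gene, with no second copy named here.

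Of the 3 other tested endothelial and blood probe sets, limma called 0 in any comparison, with an unadjusted p under 0.05 for lmo2.S with FICZ against DMSO. tal1.S, a transcription factor of blood and vessel precursors, had FICZ minus DMSO differences of 0.04 and 0.15 in its 2 probe sets and TCDD minus DMSO differences of -0.03 and 0.05. Its partner lmo2.S had 6.28, 6.11 and 6.13 in the FICZ arrays, 6.14, 6.59 and 6.72 in the TCDD arrays and 6.47, 6.59 and 6.66 in the DMSO arrays. All FICZ arrays of lmo2.S lay below all DMSO arrays, and a TCDD array lay among the FICZ values. That difference was -0.40 (p 0.026) and did not pass (adjusted p 0.56). The receptor genes flt1.L (means of 4.28 with FICZ, 3.59 with TCDD and 4.33 with DMSO) and tek.S (4.48 with FICZ, 3.16 with TCDD and 4.04 with DMSO) lay in the low class.

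A second list of endothelial genes, outside the members, held 21 probe sets of 14 genes, of which 14 were tested and 0 passed in any of the 3 comparisons by limma. Some of these genes had more than 1 probe set, which are not independent measurements. With TCDD against DMSO, 4 of the 14 had an unadjusted p under 0.05 (28.6%, against 3.43% of all tested probe sets), 3 higher and 1 lower. With FICZ against TCDD there were 2 (14.3%, against 3.08%), both lower. With FICZ against DMSO there were 3 (21.4%, against 7.39%). The last 3 were sox7.L (0.40) in the higher direction and cldn5.L (-0.22) and an ets1.L probe set (-0.51) in the lower. A second tested ets1.L probe set went the other way, at 0.24. The 5 endothelial and blood member probe sets other than pecam1.L were also summed on the linear scale. The sums ran from 480 to 517.3 in the FICZ arrays, 444.9 to 498.8 in the TCDD arrays and 463.4 to 522.9 in the DMSO arrays. The groups overlapped, and none of the 5 was at the floor of 0 on any array. A linear sum follows its brightest probe sets. Here that was a tal1.S probe set with a mean log2 signal of 8.37, and the next was lmo2.S at 6.41. The sum thus says little about the dim probe sets. A blood list of 15 probe sets had 0 of 6 tested probe sets past the threshold by limma in any comparison, with runx1.L the 1 at an unadjusted p under 0.05 with FICZ against DMSO (-0.38) and with FICZ against TCDD (-0.43), and 0 with TCDD against DMSO.

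**Figure D2:**
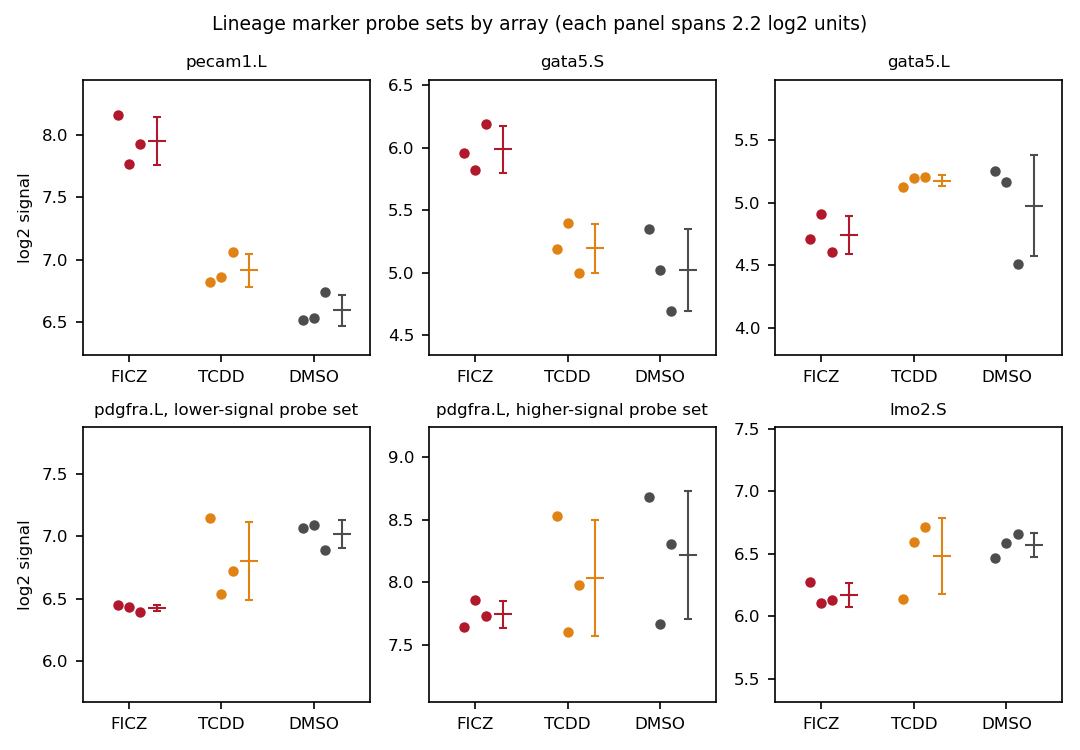
Points are single arrays and crosses with bars are the mean ± SD of 3 arrays, in log2 signal. pecam1.L is separated in all 3 groups, gata5.S is higher with FICZ than in the other arrays, gata5.L is not higher with FICZ, the lower-signal probe set of pdgfra.L and lmo2.S are lower with FICZ than with DMSO, and the other pdgfra.L probe set has overlapping groups.

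Among the GATA factors the copies of gata5, a factor of heart and endoderm, differed in their values. gata5.S had 5.95, 5.82 and 6.19 in the FICZ arrays, 5.19, 5.40 and 5.00 in the TCDD arrays and 5.35, 5.02 and 4.69 in the DMSO arrays. The FICZ arrays lay above all others, while TCDD and DMSO arrays overlapped. The FICZ minus DMSO difference was 0.97 (SE 0.21, 95% interval 0.51 to 1.42), or 1.95-fold, and fell short of the threshold (adjusted p 0.066 by limma), as did the FICZ minus TCDD difference of 0.79 (adjusted p 0.39). gata5.L had 4.71, 4.91 and 4.60 in the FICZ arrays, 5.12, 5.20 and 5.20 in the TCDD arrays and 5.25, 5.17 and 4.51 in the DMSO arrays. Its FICZ minus DMSO difference was -0.24 (95% interval -0.74 to 0.27) with overlapping groups. Against TCDD its FICZ arrays all lay lower, by -0.43 (p 0.086 by limma). Both copies lay near the lower edge of the tested range, at the 31.5th and 26.0th percentiles, and whether the copies respond differently was not tested.

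gata6.L had 11.09, 11.13 and 11.19 in the FICZ arrays, 11.19, 11.25 and 11.31 in the TCDD arrays and 11.23, 11.53 and 11.27 in the DMSO arrays. FICZ arrays lay below all DMSO arrays, by 0.21 (p 0.019, adjusted p 0.50), but by 0.12 (p 0.071) without DMSO replicate 2, the highest array. gata6.S had a difference of -0.23 in the same direction (adjusted p 0.72). A gata2.L probe set, for a factor of blood precursors, had 5.72, 5.45 and 5.67 in the FICZ arrays, 5.85, 5.79 and 5.86 in the TCDD arrays and 5.52, 5.37 and 5.60 in the DMSO arrays. The TCDD arrays lay above all others, with a TCDD minus DMSO difference of 0.34 (p 0.060, adjusted p 0.97). The other gata2.L probe set had a TCDD minus DMSO difference of 0.08. gata4.L differed from DMSO by 0.10 with FICZ and 0.09 with TCDD. gata1.L, the red blood cell factor, differed by -0.13 with FICZ and -0.11 with TCDD.

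The 7 tested probe sets grouped here as mesenchymal include s100a10.L, taken in by its family name. All 7 had negative FICZ minus DMSO differences, with a median of -0.06 beside -0.002 over all tested probe sets. However, 5 of 7 were negative with the deposited values as they are and 4 of 7 with median centring. Of the 7, limma called 0, with an unadjusted p under 0.05 for 1. The lowest were those of pdgfra.L, the receptor that takes platelet-derived growth factor in mesenchyme. Its lower-signal probe set had 6.45, 6.43 and 6.40 in the FICZ arrays, 7.15, 6.53 and 6.72 in the TCDD arrays and 7.07, 7.09 and 6.89 in the DMSO arrays. The FICZ arrays lay below all others, and the FICZ minus DMSO difference was -0.59 (95% interval -0.92 to -0.26, p 0.0020, adjusted p 0.18). The other pdgfra.L probe set had 7.64, 7.86 and 7.73 in the FICZ arrays, 8.53, 7.60 and 7.98 in the TCDD arrays and 8.68, 7.67 and 8.31 in the DMSO arrays. These groups overlapped, with a difference of -0.47 (adjusted p 0.70).

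The remaining tested mesenchymal members had small differences. vim.L differed from DMSO by -0.03 with FICZ (95% interval -0.10 to 0.05) and by -0.02 with TCDD, and vim.S by -0.02 with FICZ and 0.03 with TCDD. s100a10.L differed by -0.05 with FICZ and 0.02 with TCDD, and tagln.S by -0.06 with FICZ and -0.18 with TCDD. The intervals of tagln.L were wider: -0.22 with FICZ (95% interval -0.66 to 0.21) and 0.16 with TCDD. The genes of epithelial to mesenchymal transition snai1.S (means of 3.79 with FICZ, 3.42 with TCDD and 3.56 with DMSO), snai2.L and snai2.S, and the muscle actin genes acta1.S and acta2.L, all lay in the low class. acta1.S was the 1 member probe set at the floor of 0 on any array, on DMSO replicate 3.

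Of 12 tested keratin probe sets, limma called 0 in any comparison, and 2 had an unadjusted p under 0.05, both with FICZ against DMSO. The brighter krt8.1.S probe set differed from DMSO by 0.03 with FICZ (95% interval -0.07 to 0.13) and by -0.05 with TCDD, and krt18.1.L by -0.07 with FICZ and -0.04 with TCDD. krt19.L differed by 0.18 with FICZ and 0.11 with TCDD. The 3 tested probe sets of krt70.S had FICZ minus DMSO differences of -0.41, -0.33 and -0.33 and TCDD minus DMSO differences of -0.19, -0.20 and -0.24. The first and the second are the pair with an unadjusted p under 0.05 (0.049 and 0.038), and probe sets of 1 gene are not independent measurements. Their adjusted p values were 0.67 and 0.62.

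Adhesion genes had 0 of 6 tested probe sets past the threshold in any comparison by limma. The sodium pump beta subunits, grouped here as tubule transport, had 0 of 5. In either group 0 had an unadjusted p under 0.05. cdh11.S had 9.65, 9.28 and 9.34 in the FICZ arrays, 9.49, 9.59 and 9.67 in the TCDD arrays and 9.81, 9.57 and 9.61 in the DMSO arrays, which overlapped, with a FICZ minus DMSO difference of -0.24 (p 0.051). cdh2.S had a difference of -0.27 with FICZ and -0.22 with TCDD. Its DMSO arrays were spread, at 10.46, 10.94 and 10.23, with DMSO replicate 2 the highest, and the bright cdh2.L probe set differed by -0.10 with FICZ and -0.08 with TCDD. The other tested cdh2.L probe set, with a mean of 7.17, went the other way, at 0.22 with FICZ and 0.21 with TCDD. tjp3.S, of a tight junction scaffold, differed by -0.37 with FICZ (adjusted p 0.76) with arrays that did not overlap, and by -0.30 with TCDD. For the sodium pump, the brighter atp1b3.S probe set differed from DMSO by 0.00 with FICZ and with TCDD (95% interval with FICZ -0.16 to 0.16), and atp1b1.S by -0.06 with FICZ and -0.08 with TCDD.

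Of the kidney development factors, 0 of 8 tested probe sets passed in any comparison by limma, and their unadjusted p values were under 0.05 in 0 cases. wt1.L differed from DMSO by 0.06 with FICZ and 0.02 with TCDD, pax8.L by 0.04 with FICZ and 0.24 with TCDD, and osr1.L by -0.19 with FICZ and 0.00 with TCDD. The 3 tested pax2.L probe sets ran from -0.25 to 0.12 with FICZ and from -0.29 to -0.05 with TCDD. sall1.L, a zinc finger factor of kidney progenitors, had the widest interval of any member, -0.46 with FICZ (95% interval -1.24 to 0.32) in a probe set whose FICZ arrays were at 5.08, 3.88 and 5.58.

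**Figure D3:**
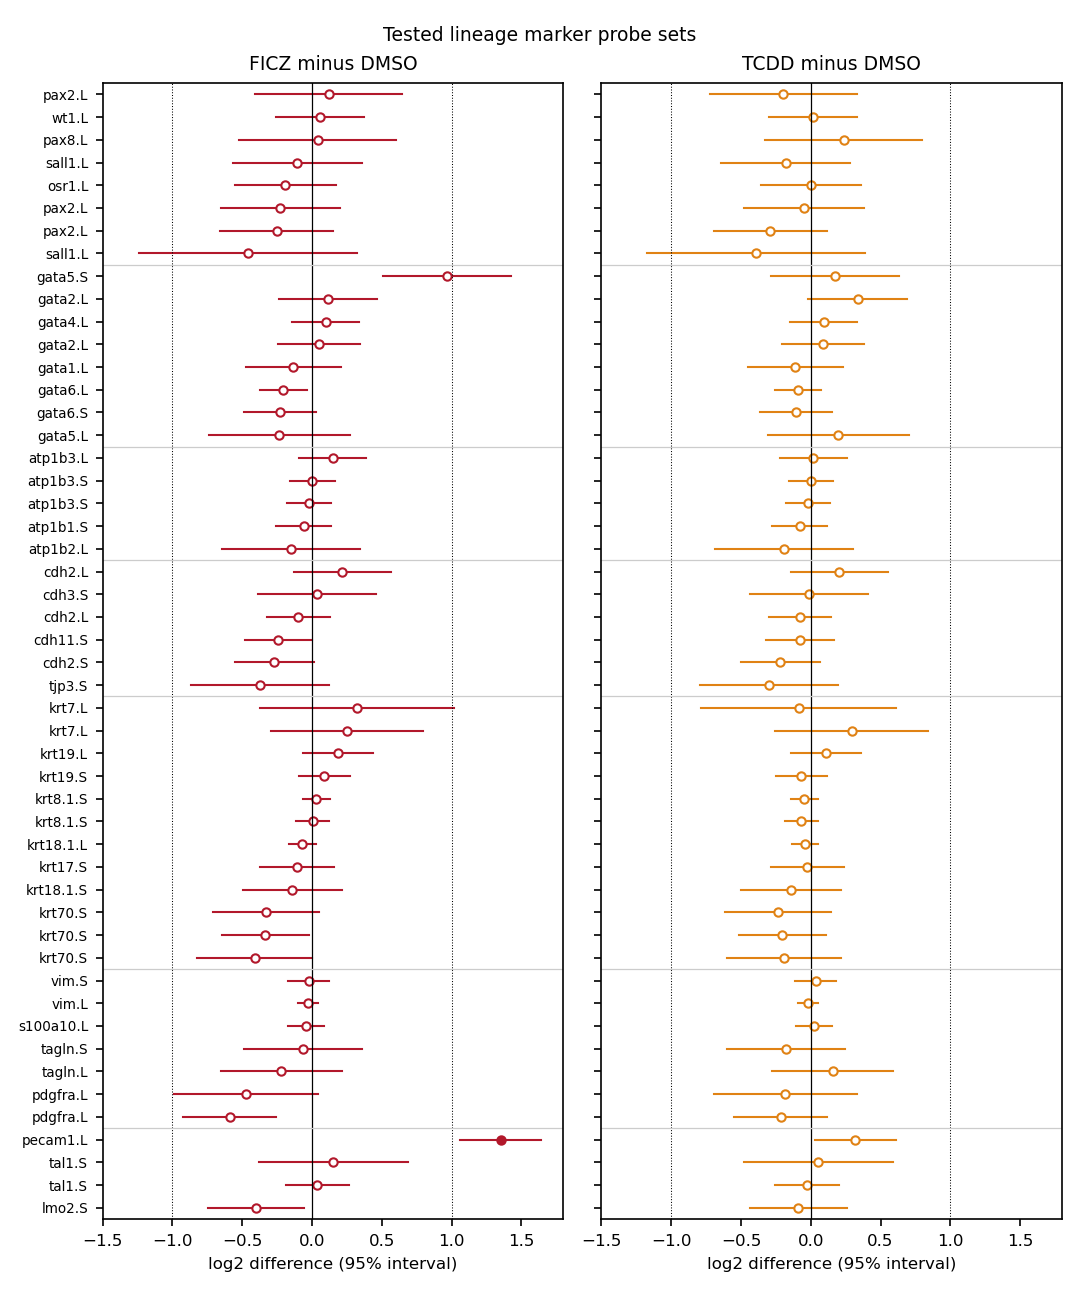
Points are log2 differences from DMSO of the 50 tested member probe sets, FICZ on the left and TCDD on the right, with 95% intervals not adjusted for the number of probe sets. A filled point passed the limma test over all probe sets, grey lines separate the roles, and dotted lines mark 2-fold. pecam1.L with FICZ is the only filled point and the only interval wholly past 2-fold.

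Taken over the 50 tested members, the FICZ minus DMSO differences were negative in 30 and positive in 20, with a median of -0.06. Positive differences made up 40% of members and 49.5% of all tested probe sets. For TCDD minus DMSO, 32 were negative and 18 positive (36%, beside 50.5% of all), with a median of -0.05. Several probe sets of 1 gene count separately here. Over the alternatives with 50 members tested, positive differences with FICZ ran from 15 (without DMSO replicate 2, median -0.10) to 23 (median centring, median -0.02). With TCDD they ran from 14 (without DMSO replicate 2, median -0.07) to 22 (deposited values as they are, median -0.009). An unadjusted p under 0.05 was found for 7 members with FICZ, or 14%, against 7.39% of all tested probe sets, and for 1 member with TCDD, or 2%, against 3.43%. These counts moved with single arrays. With FICZ the count ran from 4 without FICZ replicate 2 to 9 without DMSO replicate 2. With TCDD it was 6 without TCDD replicate 1, 4 without DMSO replicate 2 and 3 without DMSO replicate 3. It was 0 with TCDD without TCDD replicate 2, TCDD replicate 3 or DMSO replicate 1. With array weights they were 11 with FICZ and 14 with TCDD. Calls over all tested probe sets also rose with array weights, to 154 against 70 with FICZ and 22 against 3 with TCDD. The share of all with an unadjusted p under 0.05 was not counted under these alternatives. The arrays of the groups did not overlap in 8 members with FICZ (16%, against 12.2% of all) and in 2 with TCDD (4%, against 7.82%). With FICZ the 8 were pecam1.L and gata5.S, which lay higher, and gata6.L, lmo2.S, tjp3.S, 2 pax2.L probe sets and the lower-signal pdgfra.L probe set, which lay lower. With TCDD the 2 were pecam1.L and gata2.L, both higher.

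The intervals show how large a difference these arrays leave room for. For FICZ against DMSO, 46 of 50 members had a 95% interval inside a 2-fold change in either direction (97.8% of all tested probe sets did), and the other 4 were pecam1.L, gata5.S, a krt7.L probe set and a sall1.L probe set. For TCDD against DMSO it was 49 of 50 (98.9% of all), the other being the same sall1.L probe set. Inside a 1.5-fold change lay 30 members with FICZ (60%, against 77.0% of all) and 31 with TCDD (62%, against 80.1%), so smaller differences remained undecided for many. In the FICZ against TCDD comparison, 3 members had an unadjusted p under 0.05, pecam1.L, gata5.S and the lower-signal pdgfra.L probe set (-0.38, adjusted p 1.00), which is 6% beside 3.08% of all. Without TCDD replicate 1 there were 8 such members, and the pdgfra.L difference was -0.20 (p 0.17). With array weights there were 16, and calls over all tested probe sets rose to 355 against 24. The share of all with an unadjusted p under 0.05 was not counted under either alternative. The arrays of these groups did not overlap in 10 members (20%, against 10.3% of all), 47 of 50 had an interval inside 2-fold (98.5% of all) and 35 inside 1.5-fold (82.4% of all). Of the 10, pecam1.L and gata5.S lay higher with FICZ. The others lay lower: gata5.L, gata6.L, gata6.S, osr1.L, s100a10.L, the lower-signal pdgfra.L probe set, a gata2.L probe set and a pax2.L probe set. Without the filter on low signals all 97 members were tested, and pecam1.L was the 1 that passed with FICZ against DMSO and against TCDD, and 0 passed with TCDD against DMSO by limma, where 3 had an unadjusted p under 0.05. The matching share of all probe sets was not counted without the filter.

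Members differed in how far their arrays lay apart. Of the 50 tested members, 9 spanned 1 or more on the log2 scale over the 9 arrays and 23 spanned less than 0.5. The largest spans belonged to sall1.L (1.88), krt7.L (1.78) and pecam1.L (1.64), of which pecam1.L had groups that did not overlap and the others had overlapping groups. The higher-signal probe set of krt7.L, a keratin of simple epithelium, had 8.89, 9.22 and 8.91 in the FICZ arrays, 9.61, 7.83 and 8.36 in the TCDD arrays and 9.01, 8.29 and 8.77 in the DMSO arrays. Replicate 1 was its highest and replicate 2 its lowest array in both the TCDD and the DMSO group. The other krt7.L probe set did not share this order. It had 6.52, 6.53 and 6.56 in the TCDD arrays and 6.62, 5.49 and 6.62 in the DMSO arrays.

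The order of the higher-signal krt7.L probe set held in the higher-signal pdgfra.L probe set, where TCDD and DMSO replicates 2 were at 7.60 and 7.67 and the other TCDD and DMSO arrays between 7.98 and 8.68. It did not hold in the lower-signal pdgfra.L probe set, where DMSO replicate 2 was the highest DMSO array (7.07, 7.09 and 6.89). In the krt70.S probe set with the largest FICZ difference, TCDD and DMSO replicates 2 were at 9.05 and 9.14, close to the FICZ arrays (9.07 to 9.34), and the other TCDD and DMSO arrays lay between 9.58 and 9.94. Over all tested probe sets, the deviations of TCDD and DMSO replicates 1 from their group means correlated at 0.48, those of replicates 2 at 0.27 and those of replicates 3 at -0.004. For FICZ with DMSO the same values were -0.14, -0.01 and -0.05. The FICZ arrays carry other numbers in their descriptions than in their titles. Whether a shared batch accounts for this was not tested. Without DMSO replicate 2 the FICZ minus DMSO difference of that krt70.S probe set was -0.65 and without DMSO replicate 3 it was -0.26, and neither passed.

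**Figure D4:**
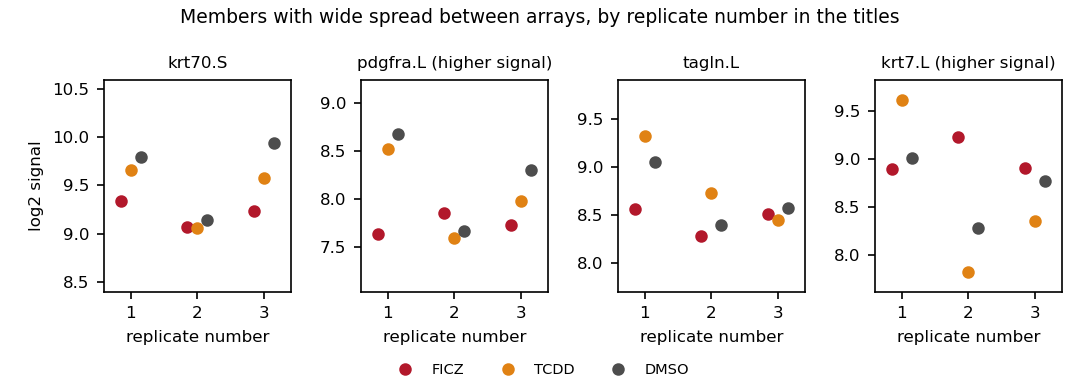
Points are log2 signals of single arrays against the replicate number in the titles, for 4 members drawn as examples of a wide spread. In krt70.S, pdgfra.L and krt7.L the TCDD and DMSO points lie lowest at number 2, and the FICZ points do not follow that order in pdgfra.L and krt7.L. For pdgfra.L and krt7.L the higher-signal probe set is drawn, and in their other probe sets that order does not hold in both groups. It does not hold in tagln.L either, where the TCDD points are at 9.32, 8.73 and 8.45, lowest at number 3.

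Lists of further kidney, fibroblast and endothelial genes gave the setting of these members. Of 20 tested probe sets of further fibroblast genes, limma called 1 higher with FICZ against DMSO, where 0.525% of all tested probe sets were. It was sparc.S, which encodes a matrix protein. It had 10.49, 10.47 and 10.47 in the FICZ arrays, 10.28, 10.16 and 10.12 in the TCDD arrays and 9.99, 9.72 and 9.99 in the DMSO arrays, with FICZ above TCDD and TCDD above DMSO in every array. The FICZ minus DMSO difference was 0.58 (adjusted p 0.0071), while sparc.L had a difference of -0.16. In this list an unadjusted p under 0.05 was found for 3 higher and 2 lower with FICZ against DMSO (25%, against 7.39% of all). There was 1, higher, with TCDD against DMSO (5%, against 3.43%). With FICZ against TCDD there were 2 higher and 1 lower (15%, against 3.08%). Of the 20 FICZ minus DMSO differences, 14 were negative. Further kidney epithelial genes had 13 tested probe sets, of which limma called 0 in any comparison, with an unadjusted p under 0.05 for 4 with FICZ against DMSO (30.8%, against 7.39% of all tested probe sets), for 2 with TCDD against DMSO (15.4%, against 3.43%) and for 0 with FICZ against TCDD. The smallest was that of cgn.L, which encodes the tight junction protein cingulin, with 9.47, 9.31 and 9.30 in the FICZ arrays, 9.77, 9.49 and 9.57 in the TCDD arrays and 9.92, 10.52 and 9.74 in the DMSO arrays, a FICZ minus DMSO difference of -0.70 (adjusted p 0.077). DMSO replicate 2 was the highest array.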

How the data were processed

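Expression was measured as total RNA on 1-colour Affymetrix arrays, with RNA purified on RNeasy columns and labelled with biotin, per the labels' protocols. The submitters' processing notes name GCOS, the scanner software, with no version, algorithm or scaling. The authors deposited what were taken as log2 signals with a floor of 0, the log base being read from their range (0 to 13.627). Arrays have no read depth, so their number, 3 per group, limits the precision, and the median standard error of a log2 difference was 0.14.

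Of 15611 probe sets 120 were controls. Symbols came from the platform annotation, 9304 probe sets having 1 symbol, 195 several and 5992 none, and 9227 were matched to a reference gene table by identifier. Values were quantile normalized, and probe sets below the 25th percentile of the mean over 9 arrays (4.88) were not tested. limma 3.58.1 in R 4.3.3 fitted group means to all 9 arrays (eBayes with trend, 6 residual degrees of freedom), with two-sided p values adjusted by Benjamini-Hochberg over 11618 probe sets called at 0.05. With 3 arrays in each of 2 groups, the smallest p of an exact permutation test would be 0.1. The procedure was also run on simulated data. Their noise was independent between arrays and of equal size for all probe sets, which these arrays do not share, and no result here rests on that run. Named members were those past the threshold, those with the smallest p values and the brightest and dimmest of each role, and examples outside this rule were chosen after their values were seen. The members, lists and alternatives were chosen with earlier results of these data known. Genome positions were not used here.

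Replicate numbers were checked for pairing by correlating deviations from group means, which ran from -0.27 to 0.48. The numbers were not taken as pairs. Tables and figures were made with Python 3.11.15, pandas 2.3.3, numpy 2.4.6 and matplotlib 3.10.9.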

Additional observations from a re-analysis of the deposited data

How the results depend on the processing

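The call of pecam1.L with FICZ against DMSO and with FICZ against TCDD was kept under all 15 alternatives of each comparison, with differences from 1.25 to 1.44 and from 0.93 to 1.12, and the highest adjusted p values were 0.0016 and 0.035. With TCDD against DMSO its difference ran from 0.24 to 0.46 and never passed (adjusted p from 0.077 to 1.00). With array weights 3 members passed with FICZ against DMSO, pecam1.L and both pdgfra.L probe sets, against 1 with equal weights, and 5 passed with FICZ against TCDD, pecam1.L, gata5.S, gata6.L, krt19.S and lmo2.S, against 1. Under all other alternatives the member counts were the same. The replicate block left the counts at 1, 0 and 1 for FICZ against DMSO, TCDD against DMSO and FICZ against TCDD, with adjusted p values of pecam1.L of 0.00010, 0.96 and 0.0027, and 4 of 9 arrays correlated best with an array of their own number. The block used the numbers in the titles, and the FICZ arrays carry other numbers in their descriptions. A batch that does not follow the title numbers was thus not tested by it. Leaving out single arrays, the counts ran from 1 to 1, from 0 to 0 and from 1 to 1. A group left with 2 arrays shares the spread of the others. The adjusted p of gata5.S with FICZ against DMSO ran from 0.052 to 0.36. Over all tested probe sets the number called ran from 26 to 154 over the alternatives for FICZ against DMSO (70 as reported), from 1 to 22 for TCDD against DMSO (3 as reported) and from 8 to 355 for FICZ against TCDD (24 as reported). The cause of these differences was not tested. Signals in the low class are not shown to be above background, which was not measured here.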

Other observations

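The summed signal of the further endothelial genes differed between the ligands, but only with the copies of cldn5 in the sum. The summed linear signal of their 21 probe sets ran from 5817 to 6072 in the FICZ arrays, from 6574 to 6912 in the TCDD arrays and from 6282 to 6463 in the DMSO arrays, so the 3 groups did not overlap, with TCDD highest and FICZ lowest. cldn5.L and cldn5.S, copies of a claudin gene known from endothelial and other tight junctions, made up 61.2% to 62.4% of that sum in the FICZ arrays, 64.2% to 66.0% in the TCDD arrays and 65.0% to 66.7% in the DMSO arrays. Without them the sums overlapped and FICZ was no longer lowest, at 2189 to 2352 with FICZ, 2259 to 2441 with TCDD and 2095 to 2264 with DMSO. cldn5.S had 10.49, 10.56 and 10.67 in the FICZ arrays, 10.84, 10.93 and 10.85 in the TCDD arrays and 10.75, 10.67 and 10.68 in the DMSO arrays. Its FICZ minus TCDD difference was -0.30 and did not pass (adjusted p 0.21 by limma). pecam1.L was highest with FICZ. The list was summed after other results were seen, and the sum was not tested.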
